A study of Mus musculus with 6 samples.

Results

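The genes described here are named for the proteins of the cytosolic ribosome and were measured in mouse leukaemia cells by RNA-seq. They were taken from the table of counts by symbol: Rps or Rpl followed by a number and at most 1 letter out of a, x and l, Rplp followed by a number, and Rpsa. This gave 82 genes of 23608 rows. By symbol, 32 of these belong to the small subunit, 47 to the large subunit and 3 to the stalk (Rplp0, Rplp1 and Rplp2). Of a list of 79 canonical ribosomal protein genes 76 were found in this way; the others, such as Fau and Rps3a1, have other kinds of symbol and are described separately. The 6 remaining genes, Rpl3l, Rpl10l, Rpl39l, Rpl32l, Rps4l and Rps27l, have symbols that end in l and are paralogues or copies of canonical genes. Among them, Rpl32l is annotated as a processed pseudogene and Rps4l as a transcribed processed pseudogene, and both are members by symbol only.

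All 6 libraries came from leukaemia cells that carried a floxed copy of Usp18 beside an intact one (Usp18+/f), a Cre recombinase that tamoxifen activates (UBCER-Cre, driven by the ubiquitin C promoter and thus not limited to a cell type) and AE9a, a truncated AML1-ETO fusion protein. The cells were transplanted into mice, which were injected with oil or with tamoxifen once they were ill, and their GFP+ Lin- c-Kit+ splenocytes were collected by sorting on day 3 from the start of the injections. Within each group the libraries are biological replicates from separate mice. The 3 oil libraries are labelled Usp18+/f and the 3 tamoxifen libraries Usp18+/D, the allele left after Cre. Tamoxifen itself and Cre activity were present in the tamoxifen group alone, so that their effects and that of the lost Usp18 copy cannot be told apart. Libraries are named below by the numbers of the count table, which differ from those of the sample titles for oil 3 and tamoxifen 2.

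Each library held between 17118964 and 20741399 counts. Tamoxifen 4 stood apart: chi-square over its degrees of freedom, for the counts of 2 libraries and near 1 under sampling noise alone, was 7.37 to 10.1 within oil, 18.2 between tamoxifen 1 and 2, and 56.9 and 68.9 between these and tamoxifen 4. Results are therefore also given without it. Usp18, the targeted gene, went against the label: it measured 9.12, 11.0 and 11.2 CPM (counts scaled by library size) with oil against 15.1, 28.0 and 19.4 CPM with tamoxifen. The edgeR quasi-likelihood test gave a log2 fold change of 0.998 ± 0.229 (SE, n = 3 per group) and an adjusted p of 0.0739, which was 0.00199 in DESeq2 and 0.00654 in edgeR without tamoxifen 4. The table has 1 value per gene, so a loss of some exons alone would not be seen in it. The groups are therefore called the libraries labelled oil and those labelled tamoxifen, in short oil and tamoxifen. Of the markers of the sorted cells, Kit was at 439 to 781 CPM and Runx1, Gata2 and Myb were also abundant, whereas Ptprc (CD45) did not exceed 0.709 CPM and Cebpa did not exceed 0.110 CPM, less than 3 counts. The summed markers of B cells, T and NK cells and neutrophils did not exceed 0.878 CPM in any library, and those of macrophages did not exceed 16.2 CPM.

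Ribosomal proteins are structural parts of the ribosome, which reads messenger RNA and joins amino acids into protein. Each ribosome holds 1 copy of nearly every ribosomal protein, and their messenger RNAs are among the most abundant of a growing cell. Most of these messenger RNAs start with a C followed by a run of C and T bases, the terminal oligopyrimidine motif, through which the mTOR pathway and the protein LARP1 regulate their translation. In blood, the loss of 1 copy of single ribosomal protein genes, such as RPS19 or RPS14 in people, is known to impair red cell formation. Free Rpl5 and Rpl11, bound to 5S ribosomal RNA, are known to bind Mdm2 and thereby stabilise p53.

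The start of the transcript is printed for 6 of the genes, because this motif is what the family is best known to share and was not used to choose its members. RefSeq promoters (GRCm38.p6) were found for 61 of the 82 genes, with 73 annotated starts. The 6 printed are not typical of the family's annotated starts: all are among the 14 genes with a start that opened with the motif by the count given below. The other 47 genes had no such start. Rpl32l, the last of the 6, is annotated as a processed pseudogene. Each line below gives the 15 bases before the start and the first 15 bases of the transcript, 5′ to 3′ on the gene's own strand, and the capitals mark the unbroken run of C and T that opens the transcript.

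Rps27, chr3:90213634-90213663, minus strand: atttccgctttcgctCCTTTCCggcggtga

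Rps10, chr17:27635230-27635259, minus strand: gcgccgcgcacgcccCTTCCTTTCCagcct

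Rplp2, chr7:141447636-141447665, plus strand: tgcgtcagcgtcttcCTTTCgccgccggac

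Rps6, chr4:86857353-86857382, minus strand: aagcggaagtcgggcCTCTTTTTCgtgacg

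Rpl15, chr14:18270972-18271001, minus strand: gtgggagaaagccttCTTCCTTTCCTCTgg

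Rpl32l, chr10:20208424-20208453, plus strand: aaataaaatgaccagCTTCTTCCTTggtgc

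A start was counted as opening with the motif where its first base was C and at least 4 further C or T bases followed without a break. By this count 14 of 73 starts (19.2%), in 14 of 61 genes (23.0%), opened with the motif, beside 2.51% of all 32851 promoters in the RefSeq table. So did 3 of 7 starts of ribosomal proteins under other names (42.9%) and 5 of 21 starts of translation factors and other genes listed for this motif (23.8%), and none of the 39 starts of ribosome assembly factors or the 23 of the RNA polymerase I machinery. By a wider count, 79.5% of the starts of ribosomal protein genes had a run of 8 or more C and T bases on the gene's strand within 50 bases of the start, beside 35.7% of all promoters; this count was chosen after the starts had been seen. The 14 genes with the motif at the annotated start had log2 fold changes between -0.10 (Rpl38) and 0.94 (Rps27). Their median log2 fold change was 0.22, beside 0.17 for the 44 tested genes whose annotated starts did not open with the motif. Runs that opened with T at the annotated start were not counted, as in Rpl27a (16 bases), Rpl7a (7) and 1 start of Rps24 (6). Both classes thus depend on the exact annotated base, and a gene without a counted start may still carry the motif.

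Ribosomal protein genes took a larger share of all counts in the libraries labelled tamoxifen. Summed over the family, they made up 3.15%, 3.25% and 3.20% of all counts in oil 1, 3 and 4 against 3.69%, 3.74% and 3.34% in tamoxifen 1, 2 and 4. The ranges of the groups did not overlap, and tamoxifen 4 lay closer to oil 3 than to the other tamoxifen libraries. The means were 3.20% ± 0.0459 and 3.59% ± 0.215 (SD, n = 3 each), a difference of 0.392 percentage points or 12.3% of the oil mean. No p is given for this sum over a chosen family, and a two-sided exact permutation test of 3 libraries against 3 could not give one below 0.1. Without tamoxifen 4 the difference was 0.516 percentage points. The 95% Wilson interval of a share reached at most 0.00899 percentage points to either side, for counting error only. The sum leaves out rows of other genes that share sequence with members, such as Rpl37rt with 7091 to 11144.5 counts per library. In bulk RNA, a change in the RNA of each cell and a change in the mixture of cells cannot be told apart.

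Both subunits contributed: the mean share was 11.5% higher for the small subunit and 12.8% higher for the large subunit and stalk, each without overlap of the groups. The small subunit genes took 1.40% ± 0.0169 of the counts in the libraries labelled oil and 1.56% ± 0.0822 in those labelled tamoxifen (SD, n = 3 each). For the large subunit and stalk together the shares were 1.80% ± 0.0292 and 2.03% ± 0.134. The ratio of small to large subunit counts, which does not depend on how libraries are scaled, was 0.783, 0.776 and 0.777 in oil 1, 3 and 4 against 0.771, 0.758 and 0.781 in tamoxifen 1, 2 and 4. These ranges overlapped, and the means, 0.779 ± 0.00376 and 0.770 ± 0.0119, differed by -0.00894, less than the SD of the tamoxifen libraries. The 5 most abundant ribosomal protein genes held 34.3% ± 0.416 of the family's counts with oil and 34.1% ± 0.538 with tamoxifen, and these ranges overlapped.

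**Figure D1:**
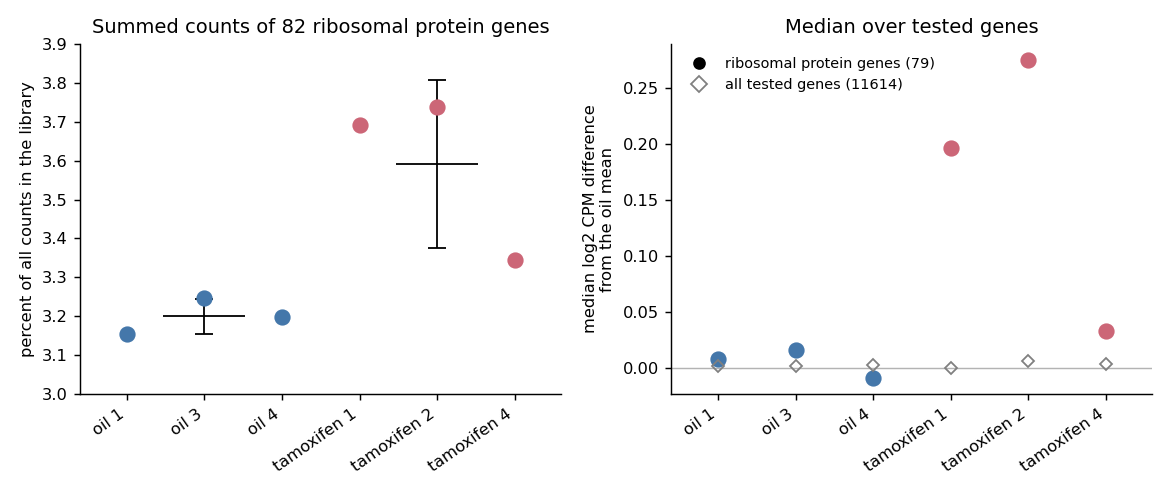
The left panel plots the summed share of the 82 genes in each library in percent of all counts, on an axis that starts at 3.0%, with a horizontal line and bar for the mean and SD of each group. The right panel plots the median difference in log2 CPM from the oil mean over the 79 tested ribosomal protein genes (filled circles) and over all 11614 tested genes (open diamonds); blue is oil and red is tamoxifen, and tamoxifen 1 and 2 stand at 0.20 and 0.28 while tamoxifen 4 stands at 0.03.

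Gene by gene, the family moved by little and mostly upwards. Of the 82 genes, 79 passed the filter on low counts, and 68 of these had a positive log2 fold change, beside 50% of the 11614 genes tested. The median log2 fold change over the 79 was 0.18, about 13.5% higher, with an interquartile range of 0.10 to 0.25; over all tested genes the median was 0.0001. No single ribosomal protein gene passed an adjusted p of 0.05 in edgeR, in either direction, where 1.75% of all tested genes were called higher and 0.267% lower. At an unadjusted p under 0.05, 7 of the 79 (8.86%) were higher and 0 were lower, beside 12.6% and 7.99% of all tested genes, so the share of single genes with a low p was not above the background. DESeq2's Wald test called 2 higher (background 6.14%) and 0 lower (background 1.99%), and limma-voom called 0. Without overlap in CPM, tamoxifen was above oil for 20 of the 79 and below it for 1, beside 13.3% and 11.8% of all tested genes.

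The size of the shift depended on the library. Taken against the oil mean, the median ribosomal protein gene stood at 0.20 on the log2 scale in tamoxifen 1 and at 0.28 in tamoxifen 2, but at 0.03 in tamoxifen 4. The oil libraries lay between -0.01 and 0.02. Without tamoxifen 4, the median over the 79 genes was 0.24 and edgeR called 35 of them higher (44.3%) and 1 lower, Rpl31. In that fit 19.2% of all tested genes were called higher and 17.1% lower. It compared the 3 oil libraries with tamoxifen 1 and 2 alone, and so left out the tamoxifen library in which the family had moved least. Among the 35 were the stalk genes Rplp0 (log2 fold change 0.32, adjusted p = 0.00427) and Rplp2 (0.41, adjusted p = 0.0157), and the large subunit genes Rpl32 (0.41, adjusted p = 0.00150), Rpl39 (0.58, adjusted p = 0.000840) and Rpl8 (0.26, adjusted p = 0.0130). The small subunit supplied 18 of its 32 tested genes, among them Rps19 (0.28, adjusted p = 0.0239) and Rps14 (0.34, adjusted p = 0.0274). Over all 6 libraries, edgeR gave log2 fold changes of 0.18 for Rps19 (adjusted p = 0.383) and 0.28 for Rps14 (adjusted p = 0.245). For Rpl32 it gave 0.28 (adjusted p = 0.271) and for Rpl39 0.35 (adjusted p = 0.354), and the groups overlapped for each of these genes. Leaving out any 1 of the other 5 libraries gave 0 calls within the family in both directions, and over all tested genes 8 to 16 calls higher and 0 lower.

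**Figure D2:**
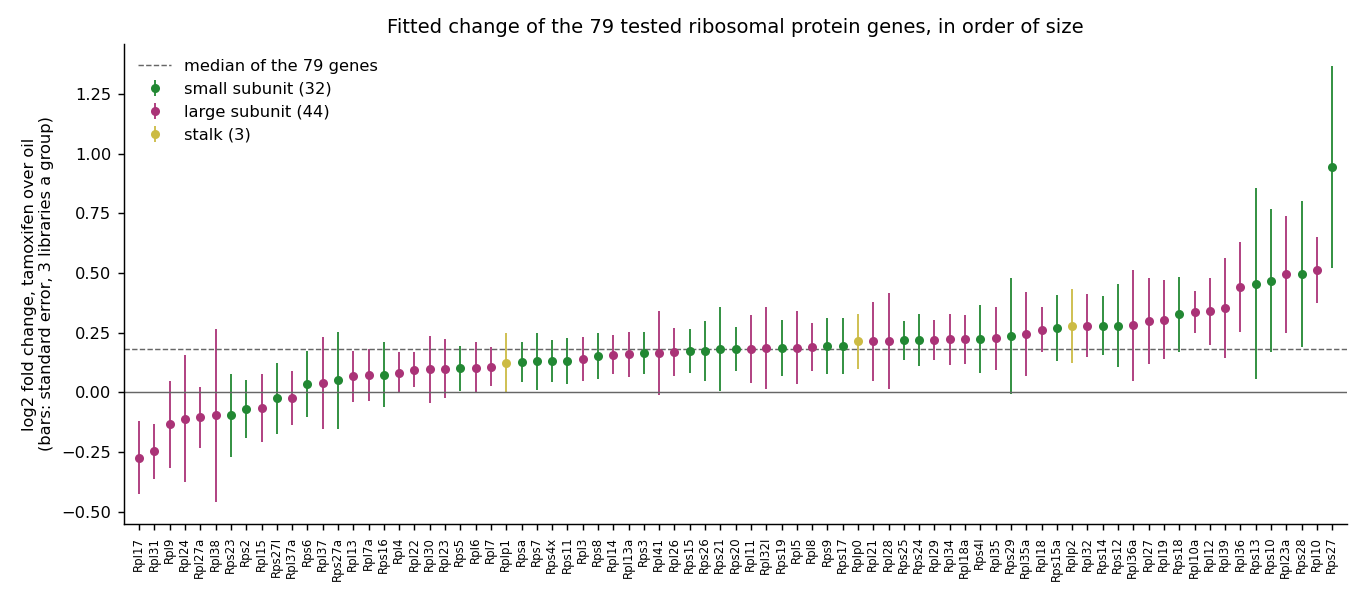
Each point is the fitted log2 fold change of 1 tested ribosomal protein gene, libraries labelled tamoxifen over libraries labelled oil, with its standard error as a bar (3 libraries per group), in order of size and coloured by subunit. Most points lie above 0, between Rpl17 at -0.27 and Rps27 at 0.94, and the dashed line is the median of 0.18.

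Among single genes, Rpl10a and Rpl10 came closest to the threshold. Rpl10a, a protein of the large subunit (chromosome 17, 28328471 to 28331033, plus strand), measured 36.6, 37.2 and 39.5 CPM in oil 1, 3 and 4 against 46.5, 48.7 and 47.9 CPM in tamoxifen 1, 2 and 4. The groups did not overlap, and tamoxifen 4 was as high as the other libraries of its group. Its log2 fold change was 0.34 ± 0.09 (SE), with an adjusted p of 0.0965 in edgeR and 0.0240 in DESeq2.

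Rpl10, which joins the large subunit late and lies near the site of peptide bond formation (chromosome X, 74270812 to 74273135, plus strand), measured 11.7, 14.2 and 13.7 CPM with oil against 17.8, 20.8 and 18.01 CPM with tamoxifen. Again the groups did not overlap. The log2 fold change was 0.51 ± 0.14, with an adjusted p of 0.107 in edgeR and 0.0251 in DESeq2. Most of the sequence of both genes also occurs elsewhere: 86.0% of the 150-base stretches of the Rpl10a transcript and 83.3% of those of Rpl10 are found without a mismatch in another annotated gene, so part of their reads cannot be placed with certainty.

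The other genes at the top of the range were measured at low levels or varied between libraries. Rps27, a zinc-binding protein of the small subunit (chromosome 3, 90212522 to 90213651, minus strand), had the highest log2 fold change, 0.94 ± 0.42, on 15 to 48 counts per library, and its adjusted p was 0.254. It measured 0.844, 0.872 and 1.34 CPM with oil against 1.98, 2.83 and 1.10 CPM with tamoxifen. Tamoxifen 4 lay within the oil range. Rps28 of the small subunit measured 15.3, 10.9 and 9.00 CPM with oil against 21.5, 18.3 and 9.83 CPM with tamoxifen, a log2 fold change of 0.50 ± 0.31 (adjusted p = 0.372). Rps10 measured 31.4, 47.8 and 34.1 CPM with oil against 47.0, 77.2 and 32.6 CPM with tamoxifen, a log2 fold change of 0.47 ± 0.30 (adjusted p = 0.390). Both had tamoxifen 4 within the range of oil. Rpl23a, which lies at the tunnel through which new proteins leave, did not overlap between the groups, at 2.06 to 2.36 CPM in oil and 2.78 to 3.40 CPM in tamoxifen, but on at most 62 counts; its log2 fold change was 0.49 ± 0.25 (adjusted p = 0.292).

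At the other end, 11 genes had a negative log2 fold change, and the lowest was Rpl17 at -0.27 ± 0.15 (adjusted p = 0.337). This large subunit protein measured 12.3, 13.0 and 11.52 CPM with oil against 9.00, 9.98 and 11.49 CPM with tamoxifen, where tamoxifen 4 came just below the lowest oil library. Rpl31 (chromosome 1, 39367842 to 39371911, plus strand) measured 42.4, 40.8 and 38.5 CPM with oil against 33.0, 30.7 and 38.8 CPM with tamoxifen, a log2 fold change of -0.25 ± 0.12 (adjusted p = 0.269). Its tamoxifen 4 value lay within the oil range; without tamoxifen 4 its log2 fold change was -0.35 (adjusted p = 0.0210). Rpl9, Rpl24 and Rpl27a had log2 fold changes of -0.13, -0.11 and -0.10, each with overlapping groups.

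The stalk proteins Rplp0, Rplp1 and Rplp2, which recruit translation factors to the ribosome, differed widely in level. Rplp0 measured 2794, 2907 and 2930 CPM with oil against 3466, 3695 and 2847 CPM with tamoxifen, a log2 fold change of 0.21 ± 0.12 (adjusted p = 0.319). Tamoxifen 1 and 2 lay above every oil library and tamoxifen 4 within their range. Rplp1 had a log2 fold change of 0.12 ± 0.13 and Rplp2 of 0.28 ± 0.15, with overlapping groups in both. Per length, Rplp1 and Rplp0 ranked 2 and 3 among the ribosomal protein genes, at 2310 and 2288 CPM per kb, and Rplp2 ranked 34 at 173 CPM per kb.

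Rpl5 and Rpl11, the proteins of the 5S particle, were at 28.3 to 37.9 CPM and 12.8 to 13.7 CPM in oil and at 32.2 to 42.8 CPM and 13.0 to 16.3 CPM in tamoxifen. Their log2 fold changes were 0.19 ± 0.15 and 0.18 ± 0.14, with overlapping groups. Among genes of the Mdm2 and p53 axis, Cdkn1a, an inhibitor of the cell cycle and p53 target, rose from 18.2, 22.3 and 15.4 CPM in oil to 95.7, 118 and 95.4 CPM in tamoxifen, a log2 fold change of 2.47 ± 0.16 (edgeR adjusted p = 0.00286). Here tamoxifen 4 was as high as tamoxifen 1. Mdm2, which marks p53 for degradation, stood at a log2 fold change of 0.39 ± 0.11 with an adjusted p of 0.107, and with groups that did not overlap. In all, 4 of the 13 tested genes of this axis passed in edgeR (Cdkn1a, Zmat3, Trp53inp1 and Eda2r), each of them higher, with a list median of 0.45. Of all tested genes, 1.75% were called higher. At an unadjusted p under 0.05 in edgeR, 10 of the 13 were higher and 1 lower, beside 12.6% and 7.99% of all tested genes. DESeq2 called 6 higher and 0 lower, with 6.14% of all tested genes called higher. The edgeR count was 7 without tamoxifen 4, where 19.2% of all tested genes were called higher. It was 2 without any 1 of the other libraries, where 8 to 16 of all tested genes were called higher.

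Rps27l, a paralogue of Rps27 and itself a known p53 target, did not pass the test. It measured 104, 90.8 and 95.7 CPM with oil against 87.8, 79.5 and 118 CPM with tamoxifen, and the log2 fold change was -0.03 ± 0.15 with an adjusted p of 0.933. Its tamoxifen libraries lay on both sides of the oil range, with tamoxifen 4 the highest of all 6. Rps27l shares no 150-base stretch with another annotated gene, whereas 98.0% of the Rps27 stretches are shared, and the counts of Rps27l were 1346.5 to 2135 per library beside 15 to 48 for Rps27.

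Of the other paralogues, Rpl10l and Rpl39l, known from testis, had 0 counts in all 6 libraries, and Rpl3l, known from muscle, had 1 count in each of oil 1 and oil 3 and 0 elsewhere. A count of 0 allows up to 3 counts, a level of 0.145 to 0.177 CPM in these libraries. Their parents Rpl10, Rpl39 and Rpl3 were all detected. Rps4l was at 53.7 to 76.9 CPM in oil and 68.2 to 78.8 CPM in tamoxifen (log2 fold change 0.22 ± 0.14), beside Rps4x at 1086 to 1114 CPM and 1119 to 1257 CPM (0.13 ± 0.09). Rpl32l, annotated as a processed pseudogene with 1 exon, was at 7.04 to 9.92 CPM over all libraries.

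Another 7 members named for a known role of their own had log2 fold changes between 0.03 and 0.17. Rpsa, also a laminin receptor, had a log2 fold change of 0.13 ± 0.08, with groups that did not overlap. Rps3, which takes part in DNA repair, had 0.17 ± 0.09, and Rpl13a, known for silencing inflammatory transcripts after interferon, had 0.16 ± 0.09; the groups did not overlap for either. Rpl26, known to promote p53 translation, had 0.17 ± 0.10, with overlapping groups. Rpl22, needed for T cell development, was at 317 to 321 CPM in oil and 335 to 345 CPM in tamoxifen, a log2 fold change of 0.10 ± 0.07. Rps6, the target of the ribosomal S6 kinases, had 0.03 ± 0.14, and Rps27a, made as a fusion with ubiquitin, had 0.05 ± 0.20, both with overlapping groups. The lowest adjusted p of these 7 was 0.314.

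Among 8 genes of ribosomal proteins or their paralogues with other kinds of symbol, 7 had a positive log2 fold change, 0 were called in edgeR in either direction, and the median was 0.14; without tamoxifen 4, 2 were called higher (25%, beside 19.2% of all tested genes). Rack1, a scaffold on the small subunit, had 0.13 ± 0.10, Fau, made as a fusion with a ubiquitin-like protein, had 0.15 ± 0.20, and Rpl22l1 had -0.13 ± 0.14, all with overlapping groups.

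Ribosome assembly factors and mitochondrial ribosomal proteins had mostly negative fold changes, though none passed the test in edgeR. Of 46 ribosome assembly factors, 12 had a positive log2 fold change and the median was -0.07; of 78 mitochondrial ribosomal proteins, 11 had a positive one and the median was -0.09. For 26 translation factors and other genes known for the pyrimidine motif the count was 14 and the median 0.03, with Eef1a1, the main elongation factor, at 0.05 ± 0.09. For 15 tested genes of the RNA polymerase I machinery the count was 10 and the median 0.04. None of these 4 lists had a gene called in edgeR; at an unadjusted p under 0.05 the assembly factors had 1 higher (Nob1) and 2 lower (Efl1 and Pdcd2l), the mitochondrial list 1 lower (Mrpl34), the translation list 2 higher (Eef1b2 and Gas5) and the polymerase list 0. Of these 4 lists, DESeq2 called only Gas5, a non-coding RNA with a pyrimidine start, which was higher with tamoxifen.

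Library by library, tamoxifen 4 stood apart in these lists too. The summed level of the assembly factors was 6506 to 7149 CPM in oil, 5810 and 6022 CPM in tamoxifen 1 and 2 and 7736 CPM in tamoxifen 4. The mitochondrial ribosomal proteins summed to 3424 to 3587 CPM in oil, 3088 and 3148 CPM in tamoxifen 1 and 2 and 3702 CPM in tamoxifen 4. In both lists, tamoxifen 1 and 2 thus lay below the oil range and tamoxifen 4 above it. Without tamoxifen 4, edgeR called 2 assembly factors higher and 19 lower (41.3%), and 0 mitochondrial ribosomal proteins higher and 18 lower (23.1%), against the backgrounds of 19.2% and 17.1% given for that fit. In the same fit the translation list had 5 calls higher and 5 lower and the polymerase list 2 and 2. Myc, a known driver of all these genes, was at 426 to 446 CPM in oil, at 412 and 409 CPM in tamoxifen 1 and 2 and at 454 CPM in tamoxifen 4 (log2 fold change -0.04 ± 0.08). Regulators of growth as a list had 5 of 12 positive, a median of -0.04 and 0 calls in edgeR, with 1 higher and 1 lower (Tsc2 and Rps6kb1) at an unadjusted p under 0.05, and 3 higher and 4 lower without tamoxifen 4.

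**Figure D3:**
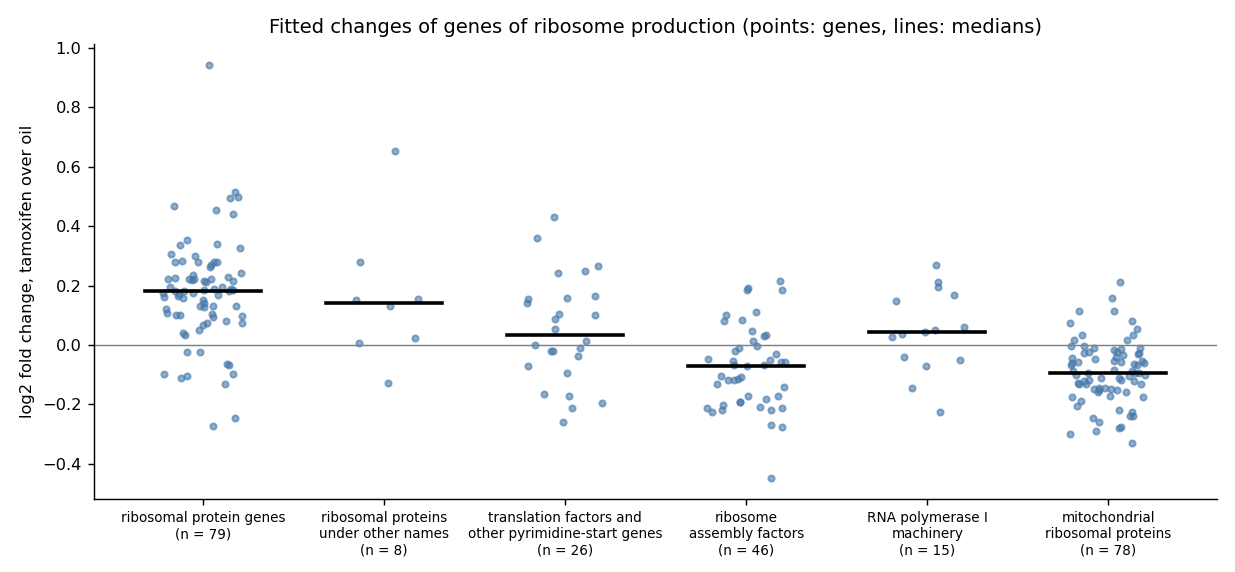
Each point is the log2 fold change, tamoxifen over oil, of 1 tested gene in 6 lists, and each line is the median of its list, with n the number of tested genes. The medians stand at 0.18 for the ribosomal protein genes, 0.14 for those under other names, 0.03 for translation factors, -0.07 for assembly factors, 0.04 for RNA polymerase I and -0.09 for mitochondrial ribosomal proteins.

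Summed markers of erythroid cells, mast cells and the leukaemia progenitors themselves also differed between tamoxifen 4 and the rest of its group. The 9 erythroid markers summed to 4913, 6178 and 3906 CPM in oil 1, 3 and 4 and to 7182, 7517 and 3126 CPM in tamoxifen 1, 2 and 4, so that tamoxifen 4 was the lowest library there; of this list edgeR called 0 higher and 1 lower and DESeq2 0 higher and 3 lower, and Klf1 and the haemoglobin genes were detected in every library. The 8 mast cell markers summed to 2362 to 2625 CPM in oil and to 4263, 6801 and 3094 CPM in tamoxifen. Of these 8, edgeR called 2 higher (Fcer1a and Tpsb2) and DESeq2 7, 7 were positive, and 6 were higher without overlap of the groups. The 9 progenitor markers summed to 2045 to 2148 CPM in oil and to 2794, 2962 and 2244 CPM in tamoxifen. Of the 7 tested, edgeR called 1 higher (Cd34) and DESeq2 2. Among all tested genes, edgeR called 1.75% higher and 0.267% lower, and DESeq2 called 6.14% higher and 1.99% lower. All 3 sums, like the ribosomal protein share, were higher in tamoxifen 1 and 2 than in tamoxifen 4. The erythroid sum hides a split within its list, where 5 genes had a positive log2 fold change and 4 a negative one. Without overlap of the groups, 0 of the 9 erythroid genes were higher and 3 were lower, beside 13.3% and 11.8% of all tested genes. Without tamoxifen 4, edgeR called 5 erythroid markers higher and 3 lower, 7 mast cell, 6 progenitor and 3 macrophage markers higher and none of these 3 lists lower, where 19.2% of all tested genes were called higher and 17.1% lower. Their part in the higher ribosomal protein share was not tested.

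The measured level of a ribosomal protein gene varied far more between genes than between groups. Divided by transcript length, the mean level of the 76 canonical genes ran from 2.19 CPM per kb (Rps13) to 2735 CPM per kb (Rpl8, a large subunit protein near the site of peptide bond formation), a 1248-fold range, although the ribosome holds these proteins in nearly equal numbers. The 5 highest levels per length were those of Rpl8, Rplp1 (2310), Rplp0 (2288), Rpl32 (1826) and Rpl4 (1692). Of the canonical genes, 22 averaged over 10000 counts per library and 8 averaged under 100.

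These levels went with how much of a transcript's sequence occurs elsewhere in the annotation. Ribosomal protein genes have many processed pseudogenes, copies of their messenger RNA inserted in the genome. Of the 82 genes, 72 shared at least 1 exact stretch of 100 bases with a total of 467 other annotated genes, and 436 of those are pseudogenes; only 17 of the 467 had a row in the table. The 28 tested genes with under 10% of their 150-base stretches shared had a median of 535 CPM per kb. The 33 genes with 10% to 50% shared had a median of 70.3 CPM per kb, and the 18 genes with 50% or more had a median of 18.3 CPM per kb. In the last class only Rpl13a, at 1065 CPM per kb, exceeded 200 CPM per kb, beside 16 of 28 in the first. Across the 79 genes Spearman's rho between level and shared percentage was -0.52, a description over genes that share their libraries and are no independent replicates. For the log2 fold changes rho was 0.03, and their medians in the 3 classes were 0.19, 0.17 and 0.15. How the counting treated reads that map to several places is not given in the sources used here, and its part in the levels was not tested.

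**Figure D4:**
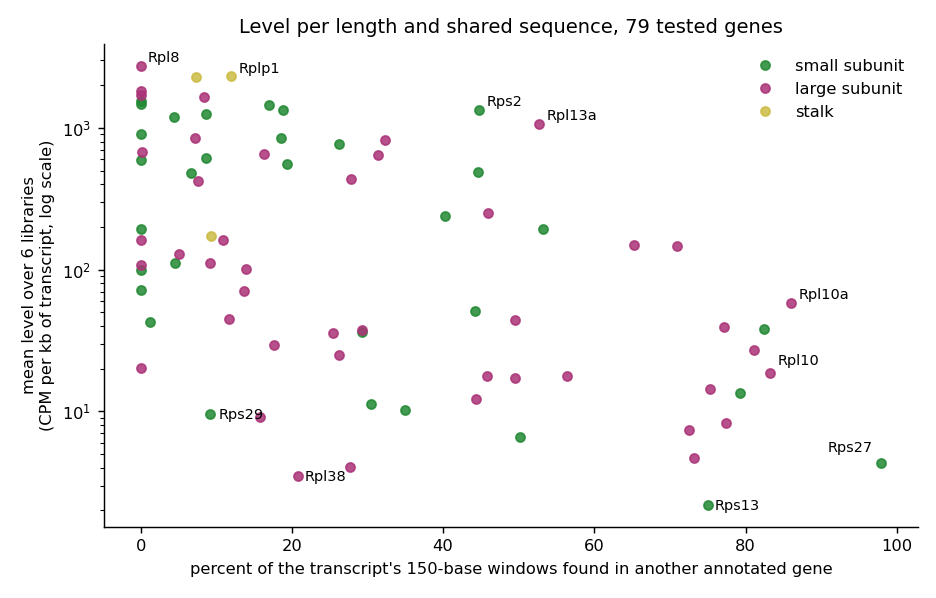
Each point is 1 of the 79 tested genes, with the percentage of its transcript's 150-base stretches that occur in another annotated gene on the horizontal axis and its mean level over 6 libraries, in CPM per kb of transcript on a log scale, on the vertical axis; colours mark the subunits. Genes with 50% or more of their sequence shared lie mostly under 200 CPM per kb, and Rpl13a, at 1065, is the exception.

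Several rows for genes that share sequence with a ribosomal protein gene held almost the counts of the ribosomal protein gene itself. These pairs were chosen after their values had been seen. The pseudogene Gm15772 (chromosome 5, 3236431 to 3236868, plus strand) had 99.0% to 99.4% of the count of Rpl26 in every library, for example 9123.5 beside 9189 in oil 1 and 10751 beside 10819.5 in tamoxifen 1. Rpl34-ps1 had 97.0% to 98.2% of the Rpl34 count, and Gm12191 had 95.3% to 98.4% of the Rpl30 count. The log2 fold change was 0.17 for both Gm15772 and Rpl26, 0.23 for Rpl34-ps1 beside 0.22 for Rpl34, and 0.11 for Gm12191 beside 0.10 for Rpl30.

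In other pairs the counts were unequal. Rpl37, a small zinc-binding protein of the large subunit, had 111 to 158.5 counts per library, whereas Rpl37rt, a transcribed copy on chromosome 5, had 7091 to 11144.5, between 48.0 and 73.7 times as many. Rps27rt had 0.469 to 0.692 times the count of Rps27. Rplp2 had 2570.5 to 3761.5 counts, while Wdr89, a protein-coding gene on chromosome 12 that shares sequence with it, had 2.60 to 3.21 times as many. For these genes the row with the symbol of the ribosomal protein does not hold all the reads that could have come from it, and low levels such as those of Rpl37 and Rps27 are uncertain in that sense.

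**Figure D5:**
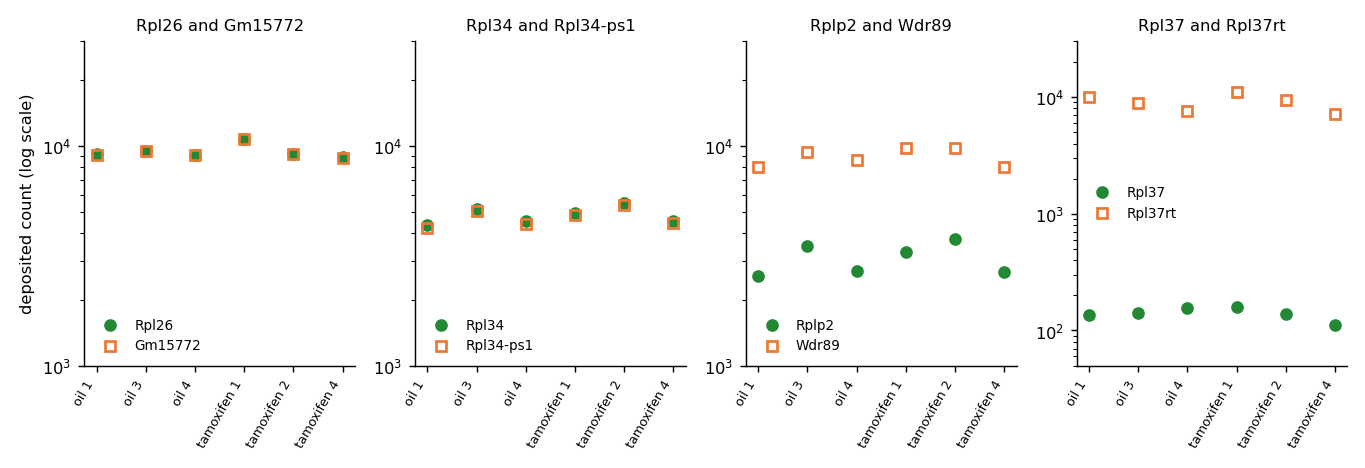
The deposited counts of 4 ribosomal protein genes (filled circles) and of the row of a gene that shares sequence with each (open squares) are plotted for each library on a log scale. Gm15772 and Rpl34-ps1 lie on top of Rpl26 and Rpl34 in every library, whereas Wdr89 lies 2.60 to 3.21 times above Rplp2 and Rpl37rt 48.0 to 73.7 times above Rpl37.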

How the data were processed

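RNA from sorted leukaemia cells was extracted with Trizol. The study had the libraries made by a provider and sequenced as paired 150-base reads on a NovaSeq instrument, while the labels name a Nextera DNA Flex kit. Estimated counts for each gene symbol were deposited by the authors, and the labels' processing notes name STAR, DESeq2 and mm10. The counting program, annotation, strand setting and handling of reads with several matches are not given in the sources used here. For 26 rows a symbol had become a date; these rows stayed in the totals. The number of per-sample columns left unused was 0.

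Counts were rounded to whole numbers and analysed in R 4.3.3 with edgeR 4.0.16 (filterByExpr by group, TMM, quasi-likelihood F test without a block), with Benjamini-Hochberg adjustment over the 11614 genes tested and a threshold of 0.05. CPM is relative to the TMM-scaled total, ± after a log2 fold change is its standard error, and a median shift per library used a prior count of 2. Replicates were compared by a chi-square statistic over genes with at least 20 counts in a pair. Summed shares and subunit ratios are given per library with mean and SD and without a p, since the members were chosen with results known. Alternatives were other scalings and filters, DESeq2 1.42.0, limma 3.58.1 (voom), a replicate block, added pseudogene rows and each library left out in turn. The fit was tested on simulated data. Coordinates and transcripts are those of GENCODE M21 (GRCm38), with 1 transcript per gene chosen by annotation rank; a long one, such as that of Rps15a (5179 bases), lowers its level per kb. Intervals and floors (3 counts) cover counting error only.

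The members and the gene lists were chosen with earlier results of these data known. Genes named are Usp18, members past the threshold, the 5 highest and 5 lowest log2 fold changes, members with symbols ending in l beside their parents, members with known roles of their own, the 5 highest levels per length, at most 3 called genes of each other list, and Fau, Rack1, Rpl22l1, Eef1a1, Myc, Mdm2 and Cdkn1a. Copy pairs, called markers and the genes named beside other short counts (such as Trp53inp1) were chosen after their values were seen. A few values that the rule would name are not reported here.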

Additional observations from a re-analysis of the deposited data

How the results depend on the processing

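The difference in the share of counts ran from 0.319 to 0.516 percentage points over its alternatives, the upper value without tamoxifen 4, and the log2 ratio of small to large subunit differed by -0.027 to -0.0051 (-0.017 as reported). The median log2 fold change of the ribosomal protein genes stayed between 0.13 and 0.24 over 16 alternatives. The count of ribosomal protein genes called higher was 2 with the DESeq2 Wald test and ran from 0 to 35 with each library left out in turn; the count called lower ran from 0 to 1. Both upper values came without tamoxifen 4; the cause was not tested. Of 44 named genes, 39 kept their sign throughout, and the other 5 had reported values from -0.11 to 0.15. Their log2 fold changes over the fits with a library left out ran from -0.21 to 0.090 for Rps27l, -0.032 to 0.15 for Rps27a, -0.26 to 0.20 for Rpl24, -0.019 to 0.31 for Fau and -0.12 to 0.13 for Rps6.

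The labels share the replicate numbers 1 and 4 between the groups. Same-numbered libraries did not deviate together over all genes (correlations of -0.13 and 0.06; over the ribosomal protein genes 0.47 and 0.18), and with only 2 shared numbers they were not taken as pairs. With the replicate block, which left 1 residual degree of freedom, 0 ribosomal protein genes were called and their median was 0.13; Rps27l then stood at 0.031, Rps27a at -0.10 and Fau at -0.047. The share without mitochondrially encoded rows was not run because the table used here has no symbol starting with mt-. Members under 100 counts, and the 3 that were not tested, are limited by depth.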
